A study of Mus musculus with 6 samples.

Results

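Striatal projection neurons, the main output cells of the striatum, are described here through 10 genes of their signalling machinery: Drd1, Drd2, Gpr6, Gng7, Rgs9, Adcy5, Pde10a, Pde1b, Penk and Scn4b. They were picked by symbol among 22180 genes with a probe set of exactly 1 gene symbol, and all 10 were measured. The choice was made with their levels on these arrays already known, so those levels are given as a description. The study compared transgenic mice, in which non-proliferative GFAP+ astrocytes can be eliminated by induced apoptosis, with wild type mice, to ask what astrocytes do in early myelin repair. Both genotypes were 5 to 6 weeks old, received an LPC lesion (a lipid that strips myelin locally) and then CID, the compound that triggers the ablation, 48 hours later. Lesioned brain was macrodissected 7 days after the lesion from 3 transgenic and 3 wild type samples. The labels name neither the brain region dissected nor the promoter of the transgene, and give no animal for any sample, so each p-value reflects the spread over these 6 samples, which may be technical.

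The striatum receives dopamine from the midbrain and glutamate from cortex and thalamus. Its projection neurons form a direct pathway, marked by the dopamine receptor Drd1 and the peptide genes Tac1 and Pdyn, and an indirect pathway, marked by Drd2, Gpr6 and Penk. Dopamine raises cAMP through Drd1 and lowers it through Drd2. The stimulating G protein of the striatum contains the subunits encoded by Gnal and Gng7 and acts on the adenylyl cyclase Adcy5. Phosphodiesterases such as Pde10a and Pde1b remove cyclic nucleotides again. In macrodissected tissue, fewer cells of a type and less RNA per cell cannot be told apart.

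The 10 genes shared a pattern that split the wild type group: low levels on the 3 transgenic arrays and on wild type replicate 1, and high levels on the other wild type arrays, replicates 2 and 3. Wild type replicate 3 was the highest array and wild type replicate 2 the next in 10 of 10 genes, an order found in 2.6% of all 41345 probe sets. In 10 of 10 the widest step between neighbouring arrays also lay just below these 2 arrays; this order and step together were found in 0.46% of all 22180 genes. From the lowest to the highest array the genes spanned 1.91 (Pde1b) to 4.18 (Penk) on the log2 scale, with a median of 2.58, whereas the median over all genes was 0.59. All values below are log2 intensities after RMA unless a difference is named, and levels of different probe sets are not compared.

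**Figure D1:**
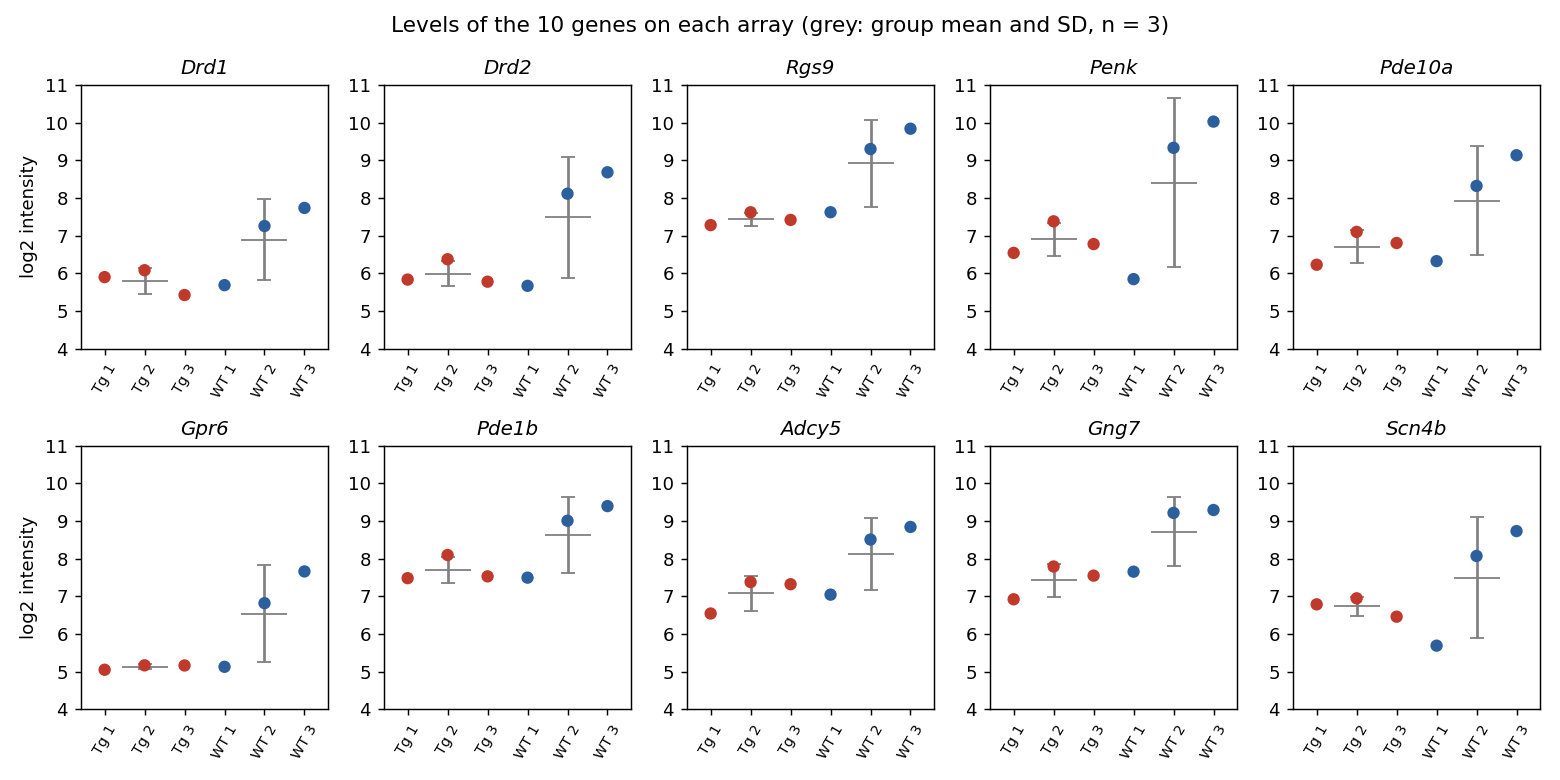
Level of each of the 10 genes on each array, as log2 intensity, with transgenic (Tg) arrays in red, wild type (WT) arrays in blue and the group mean and SD in grey (n = 3 each). In every panel WT 3 and then WT 2 are highest, while WT 1 lies near the transgenic arrays or, for Penk and Scn4b, well below them.

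Among the receptors, Drd1, which raises cAMP on binding dopamine, stood at 5.90, 6.08 and 5.42 in transgenic replicates 1, 2 and 3, against 5.69, 7.25 and 7.74 in wild type replicates 1, 2 and 3. Drd2, which lowers cAMP on binding dopamine, stood at 5.83, 6.37 and 5.78 in transgenic lesions, against 5.67, 8.11 and 8.68 in wild type lesions. For both receptors the groups overlapped, since wild type replicate 1 lay inside the transgenic range for Drd1 and below it for Drd2. Gpr6, a receptor of indirect pathway neurons that raises cAMP without an added ligand, stood at 5.05, 5.17 and 5.17 in transgenic lesions, against 5.13, 6.82 and 7.66 in wild type lesions. The 4 low Gpr6 arrays lay within 0.12 of each other and below the array medians, which were 5.34 to 5.59; whether they exceed background is unknown, as detection calls were not used here. Drd1, of the direct pathway, and Drd2 and Gpr6, of the indirect pathway, were thus high on the same arrays.

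Because the genes moved together, the 250 bases before the annotated start were read for them from RefSeq (GRCm38.p6), using the most upstream start listed; windows were found for 9 of the 10 genes. Those of the 3 receptors and of Rgs9 are shown, 5′ to 3′ on the gene's strand, to let the receptors of both pathways be compared with a gene common to them. They lie at chr13:54055659-54055908 (minus strand) for Drd1, chr9:49340153-49340402 (plus strand) for Drd2, chr10:41072291-41072540 (minus strand) for Gpr6 and chr11:109298182-109298431 (minus strand) for Rgs9. Capitals mark matches, on either strand, to any of 4 motifs: the core of the cAMP response element CGTCA, the GC box GGGCGG, the TATA box TATAAA and the forkhead motif GTAAACA.
Drd1: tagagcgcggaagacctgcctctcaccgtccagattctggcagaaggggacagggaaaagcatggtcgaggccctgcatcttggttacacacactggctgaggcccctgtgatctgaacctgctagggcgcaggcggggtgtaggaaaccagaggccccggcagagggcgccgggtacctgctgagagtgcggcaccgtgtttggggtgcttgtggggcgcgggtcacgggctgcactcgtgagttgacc
Drd2: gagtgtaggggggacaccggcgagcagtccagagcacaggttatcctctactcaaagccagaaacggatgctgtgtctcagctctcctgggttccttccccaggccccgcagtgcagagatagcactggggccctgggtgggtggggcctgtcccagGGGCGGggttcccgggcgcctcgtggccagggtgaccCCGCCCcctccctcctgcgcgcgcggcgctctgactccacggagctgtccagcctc
Gpr6: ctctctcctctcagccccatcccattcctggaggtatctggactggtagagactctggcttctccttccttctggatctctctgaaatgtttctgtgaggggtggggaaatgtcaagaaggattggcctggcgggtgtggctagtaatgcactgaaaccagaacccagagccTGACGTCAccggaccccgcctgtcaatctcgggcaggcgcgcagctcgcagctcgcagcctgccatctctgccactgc
Rgs9: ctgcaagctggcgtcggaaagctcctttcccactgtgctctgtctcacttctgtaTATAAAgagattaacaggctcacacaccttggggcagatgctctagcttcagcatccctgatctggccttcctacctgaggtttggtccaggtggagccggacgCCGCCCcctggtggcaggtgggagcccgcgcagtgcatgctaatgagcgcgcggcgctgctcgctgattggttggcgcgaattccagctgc
The window of Drd1 held none of these letters. That of Drd2 held the GC box at 2 places, and that of Gpr6 held the cAMP response element core on both strands in 1 overlapping pair. The GC box occurred in 6 of the 9 windows (Adcy5, Drd2, Gng7, Pde10a, Pde1b and Rgs9), against 32.7% of 32851 windows of all genes. The windows of all genes include every listed start, whereas the 9 genes, with 14 listed windows, were read at 1 start each. The cAMP response element core occurred in 1 of 9 (Gpr6) against 17.8%, the TATA box in 1 of 9 (Rgs9) against 12.4% and the forkhead motif in 0 of 9 against 3.17%. The 9 windows were 58.4% to 78% G and C, with a median of 66%, compared with a median of 52.4% over all windows, and a GC-rich motif is found more often in GC-rich sequence. A match is a run of letters and does not show binding.

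Of the G protein and its regulator, Gng7, the gamma subunit of the striatal G protein, stood at 6.92, 7.79 and 7.55 in transgenic lesions, against 7.66, 9.22 and 9.29 in wild type lesions. Its level on wild type replicate 3 exceeded that on wild type replicate 2 by only 0.08, the smallest such step of the 10 genes. Rgs9, which speeds the switching off of G proteins and whose brain form is enriched in striatum, stood at 7.28, 7.62 and 7.42 in transgenic lesions, against 7.62, 9.30 and 9.84 in wild type lesions. Rgs9 was the only one of the 10 whose groups did not overlap, by a margin below the second decimal between wild type replicate 1 and transgenic replicate 2. Groups did not overlap, with transgenic arrays lower, for 7.6% of all probe sets.

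The enzymes of cyclic nucleotides followed the same order. Adcy5, the main adenylyl cyclase of the striatum, stood at 6.55, 7.38 and 7.32 in transgenic lesions, against 7.05, 8.51 and 8.84 in wild type lesions. Pde10a, a phosphodiesterase of cAMP and cGMP concentrated in projection neurons, stood at 6.23, 7.10 and 6.80 in transgenic lesions, against 6.32, 8.32 and 9.13 in wild type lesions. Pde1b, a phosphodiesterase activated by calcium and calmodulin, stood at 7.48, 8.10 and 7.53 in transgenic lesions, against 7.50, 9.01 and 9.40 in wild type lesions. In all 3 enzymes wild type replicate 1 lay inside the transgenic range. Pde1b had the smallest step between the upper 2 arrays and the next, 0.91 on the log2 scale.

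Penk, which encodes the precursor of the enkephalin opioid peptides, had the widest range of the 10 genes. It stood at 6.54, 7.38 and 6.78 in transgenic lesions, against 5.85, 9.33 and 10.03 in wild type lesions, an 18.1-fold span between the lowest and the highest array. Scn4b, a sodium channel beta subunit that supports fast repeated firing, stood at 6.79, 6.95 and 6.46 in transgenic lesions, against 5.69, 8.07 and 8.73 in wild type lesions. In both of these genes and in Drd2, wild type replicate 1 was the lowest of the 6 arrays. Over the 10 genes it lay below the transgenic arrays in 3, inside their range in 6 and above it in 1 (Rgs9).

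Set against wild type lesions, transgenic lesions had lower means for 10 of 10 genes, but 0 of them passed the test. The median difference, transgenic minus wild type, was -1.26 on the log2 scale, beside a median of -0.01 over all 22180 genes, of which 51.3% were lower. Penk averaged 6.90 ± 0.43 in transgenic lesions and 8.40 ± 2.24 in wild type lesions (SD, n = 3 each), a difference of -1.50 (SE 0.98, adjusted p 0.71 in limma). Drd2 averaged 5.99 ± 0.33 in transgenic lesions and 7.49 ± 1.60 in wild type lesions (adjusted p 0.601 in limma). The smallest adjusted p of the 10 was that of Rgs9, at 0.497 in limma for a difference of -1.48 (SE 0.52).

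The other differences ranged from -1.41 for Gpr6 to -0.77 for Scn4b, with Gng7 at -1.30, Pde10a at -1.22, Drd1 at -1.09, Adcy5 at -1.05 and Pde1b at -0.93. Adjusted p-values in limma reached at most 0.8 for Scn4b. Over the whole table, 0 of 41345 probe sets (0%) had an adjusted p under 0.05 in limma. At an unadjusted p under 0.05, 3 of the 10 were lower (Rgs9, Gng7 and Gpr6), beside 4.05% of all probe sets that were lower. In a test without variance moderation the count was 0 of the 10, beside 3210 of 41345 probe sets in either direction. The members had been chosen with this contrast known, so these counts support nothing by themselves.

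The size of the group difference depended on which wild type array entered. Without wild type replicate 1 the median difference was -1.92, and without wild type replicate 3 it was -0.69. With wild type replicate 1 left out, 10 of 10 genes had an unadjusted p under 0.05, beside 2.42% of all probe sets that were lower, while adjusted p-values lay between 0.713 and 0.776 in limma and 0 of 41345 probe sets passed. Leaving out this array removes the low value of the wild type group. The count was 0 of 10 without wild type replicate 2, beside 2253 of 41345 probe sets in either direction. Without wild type replicate 3 it was 0 of 10 beside 2794 probe sets, and without transgenic replicate 1, 0 of 10 beside 5168. It was 2 of 10 without transgenic replicate 2, beside 4170 probe sets, and 1 of 10 without transgenic replicate 3, beside 3792. The spread lay inside the wild type group: the median SD of the 10 genes was 0.34 in transgenic lesions and 1.22 in wild type lesions, whereas over all genes it was 0.23 in transgenic lesions and 0.13 in wild type lesions. In 10 of 10 genes the SD was larger in the wild type group.

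**Figure D2:**
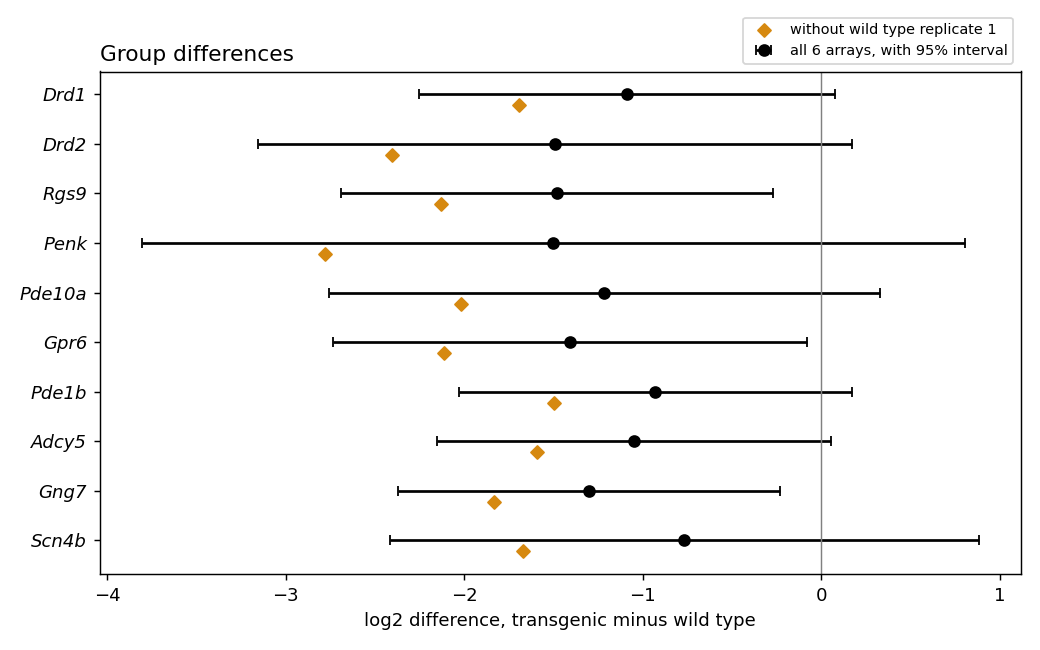
Difference of each gene, transgenic minus wild type on the log2 scale, with all 6 arrays (black, with the 95% confidence interval of the limma fit) and without wild type replicate 1 (orange). All 10 values are below 0 in both, and the intervals with all 6 arrays include 0 for every gene but Rgs9, Gpr6 and Gng7.

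The genes varied together closely. After each gene was centred on its mean over the 6 arrays, 1 component held 96.4% of the variance of the 10 profiles. The mean deviation was -0.85, -0.31 and -0.68 in transgenic replicates 1, 2 and 3, against -0.89, 1.09 and 1.63 in wild type replicates 1, 2 and 3. The root mean square distance between a gene and the mean of the other 9 was 0.18 for Pde10a, the closest, and 0.19 for Rgs9. It was 0.35 for Scn4b and 0.62 for Penk, whose swings were the widest. Over the 45 pairs of genes the distance ranged from 0.13 to 0.80. No correlation coefficient is given, because the arrays fall into 2 separate levels.

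Smaller steps were also shared. Wild type replicate 3 exceeded wild type replicate 2 in 10 of 10 genes, by 0.08 in Gng7 to 0.84 in Gpr6. Within the transgenic group, replicate 2 was highest in 10 of 10 genes, as in 41.6% of all genes, and replicate 1 was lowest in 7 of 10. The share of all genes with replicate 1 lowest was not computed. Some lists of other cell types had a like order among the transgenic arrays, and others did not. Transgenic replicate 2 was the highest transgenic array in 7 of 9 pan-neuronal genes and 7 of 8 cortical genes, and replicate 1 the lowest in 9 of 9 and 7 of 8. Myelin and astrocyte genes shared it, with replicate 2 highest in 7 of 9 and 5 of 7, and replicate 1 lowest in 6 of 9 and 6 of 7. Microglial and macrophage genes did not, with replicate 2 highest in 0 of 6 and replicate 1 lowest in 2 of 6. Both counts were 0 of 4 for dopaminergic neuron genes and 1 of 5 for ependymal and choroid plexus genes. Lists closer in kind to the 10 genes were mixed. Replicate 2 was highest in 13 of 17 dopamine and cAMP genes, 3 of 7 direct pathway genes and 4 of 5 indirect pathway genes. It was highest in 5 of 9 striatal transcription factors. In these lists replicate 1 was lowest in 15 of 17, 3 of 7, 4 of 5 and 7 of 9. The order among the transgenic arrays was thus not limited to neuronal genes, but not every list had it.

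Other genes of dopamine and cAMP signalling showed the pattern in part. Of 17 measured genes of this list, 14 had lower and 3 higher means in transgenic lesions. Their median difference was -0.18, and 0 passed the test in either direction. Gnal, the alpha subunit of the striatal G protein, stood at 6.95, 8.29 and 7.92 in transgenic lesions, against 8.03, 9.06 and 9.42 in wild type lesions. Ptpn5, a striatum-enriched tyrosine phosphatase, stood at 7.13, 7.51 and 7.32 in transgenic lesions, against 7.02, 7.48 and 7.86 in wild type lesions, so its groups overlapped widely. Arpp21, a cAMP-regulated phosphoprotein also present in cortex, differed by 0.11 (SE 0.26). Wild type replicate 3 and then 2 were the highest arrays in 6 of the 17 genes.

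Further markers of both pathways were measured. In the direct pathway list, 7 of 7 genes had lower means in transgenic lesions, 0 passed, and the median difference was -0.43. Tac1, the precursor of substance P, stood at 6.74, 7.33 and 6.72 in transgenic lesions, against 5.99, 8.23 and 8.54 in wild type lesions. Pdyn, the dynorphin precursor, stood at 6.05, 5.54 and 5.88 in transgenic lesions, against 5.81, 6.47 and 6.70 in wild type lesions, and Isl1, a transcription factor of direct pathway neurons, differed by -0.19. In both peptide genes the highest arrays were again wild type replicates 3 and 2. In the indirect pathway list, 4 of 5 genes had lower means, 0 passed, and the median difference was -0.04. Wild type replicate 3 and then 2 were the highest arrays in 1 of these 5 genes, against 5 of the 7 direct pathway genes. Both lists leave out the 10 genes, of which Drd2, Gpr6 and Penk, of the indirect pathway, all had this order. Adora2a, also listed for the indirect pathway, had no probe set with exactly 1 symbol. Gpr52, a receptor of indirect pathway neurons, stood at 6.19, 6.70 and 6.70 in transgenic lesions, against 6.52, 7.63 and 8.25 in wild type lesions. Grik3, a kainate receptor subunit, differed by -0.03. Sp9, a transcription factor also of neuroblasts, differed by -0.44 and was highest on wild type replicate 2 and next on replicate 3. Its levels, 4.62 to 5.27, lay below every array median, and whether they exceed background is unknown.

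Transcription factors of the striatum differed by a median of -0.51, with 9 of 9 lower in mean and 0 past the test. Wild type replicate 3 and then 2 were the highest arrays in 7 of the 9. Foxp1 differed by -0.10, Foxp2 by -0.53 and Bcl11b by -0.42. Rarb, a retinoic acid receptor of projection neurons, had a larger difference of -0.98. Receptors for opioids, the targets of enkephalin, and for cannabinoids had that order in 0 of 4 genes. Their median difference was 0.12, with Oprm1 at 0.13, Oprk1 at -0.05 and Oprd1 at 0.10.

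Relatives of the 10 genes that are not characteristic of striatum had this order in 1 of 23 cases, Scn3a. In the list of other G protein gamma subunits and adenylyl cyclases, 0 of 10 genes had wild type replicate 3 and then 2 highest. The median difference was 0.12. Gng3, a gamma subunit of many neurons, was measured at 10.78, 11.01 and 10.68 in transgenic lesions, against 10.24, 10.26 and 10.18 in wild type lesions, a difference of 0.59 (SE 0.15, adjusted p 0.406 in limma). Its transgenic arrays were all higher, as in 8.54% of all probe sets. Gng2 differed by 0.20 and Gng4 by -0.13, with Gng4 highest on wild type replicate 2 and next on replicate 3. In the list of other phosphodiesterases the count was 0 of 7 and the median difference 0.16, with Pde1a at 0.38, Pde1c at -0.08 and Pde4a at 0.28. The Pde1c levels, 4.54 to 4.87, lay below every array median. Of 6 other sodium channel subunits, Scn1a differed by 0.60, Scn2a by 0.10 and Scn3a by -0.22. Of the 23 genes, 0 had an adjusted p under 0.05 in limma.

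**Figure D3:**
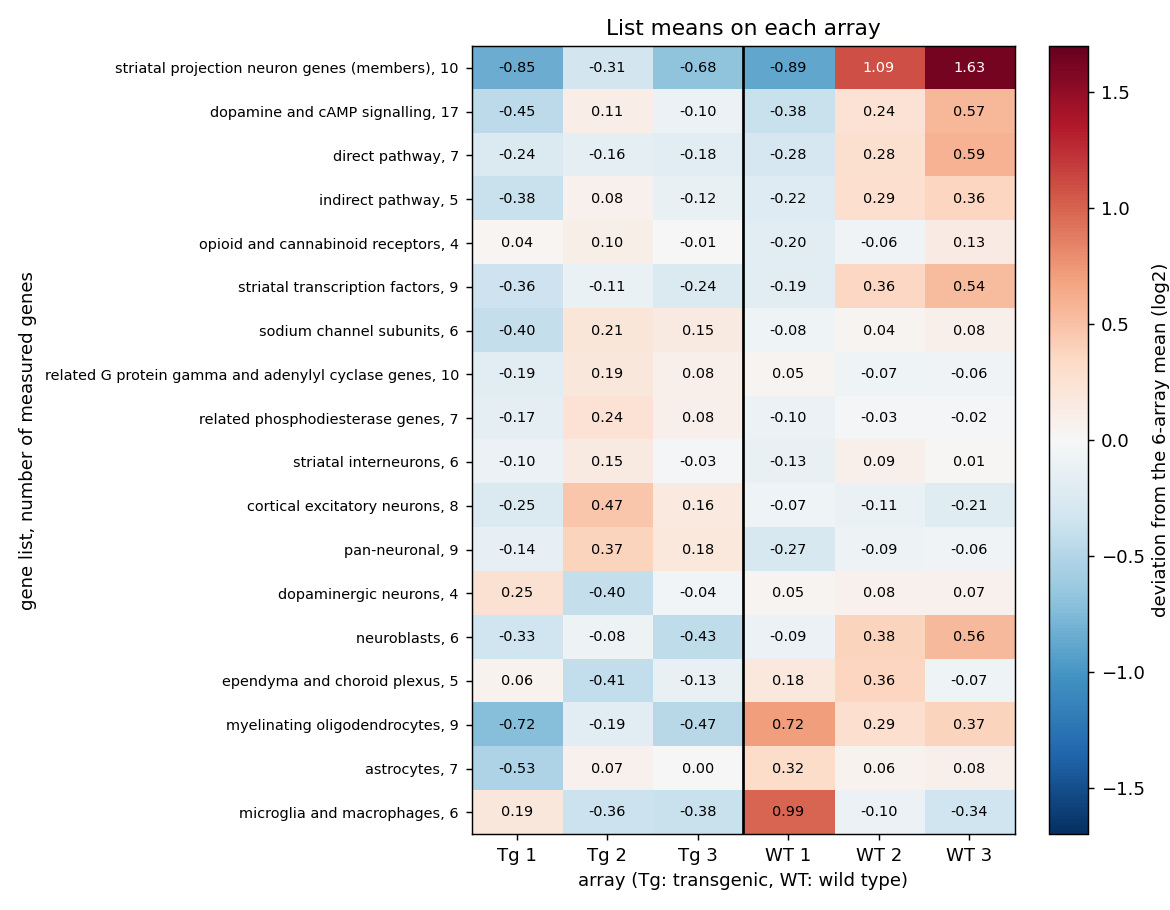
Mean deviation of each gene list on each array (Tg, transgenic; WT, wild type), on the log2 scale, after centring each gene on its 6-array mean; numbers after list names count the measured genes. The 10 genes range from -0.89 on WT 1 to 1.63 on WT 3, while the cortical and pan-neuronal lists are highest on Tg 2, at 0.47 and 0.37, and the myelin and microglial lists on WT 1.

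Markers of other cell types that the dissection could hold were read beside the 10 genes, and their part in the result was not tested. The summed linear intensity of 9 pan-neuronal genes was 11568 to 15970 in transgenic lesions and 11387 to 12423 in wild type lesions. Each such sum is read across arrays and is not compared with the sum of another list. The sum of the 10 striatal genes was 978 to 1473 in transgenic lesions, against 1038, 3879 and 5532 in wild type replicates 1, 2 and 3. Snap25, Syt1 and Rbfox3, found in most neurons, differed by 0.16, 0.22 and 0.40. The 8 cortical excitatory genes summed to 2275 to 3314 in transgenic lesions and 2289 to 2631 in wild type lesions, with Tbr1 at 0.38, Neurod6 at 0.34 and Cux2 at 0.22 in difference.

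Cholinergic interneuron genes were low, with Chat at 4.60 to 4.97 in transgenic lesions and 4.53 to 4.81 in wild type lesions, and Slc5a7 at 4.30 to 4.86 in transgenic lesions and 4.79 to 5.00 in wild type lesions. These levels lie below every array median. Npy, a peptide of striatal and cortical interneurons, differed by 0.73 (adjusted p 0.441 in limma), with higher values on every transgenic array. The 6 interneuron genes summed to 4354 to 6442 in transgenic lesions and 4170 to 4704 in wild type lesions. This linear sum rests mostly on Npy and Sst, which stood at 10.93 and 11.09 in transgenic replicate 1. Nos1 and Kit stood at 6.57 and 6.33 there, so the sum says little of the other genes. Genes of dopaminergic neurons, whose cell bodies lie in the midbrain, summed over 4 genes to 169 to 275 in transgenic lesions and 232 to 239 in wild type lesions, with differences of -0.15 for Th, -0.03 for Slc6a3 and -0.27 for Slc18a2.

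Neuroblast genes, which mark the subventricular zone beside the striatum, summed over 6 genes to 557 to 794 in transgenic lesions, against 756, 1201 and 1297 in wild type replicates 1, 2 and 3. Wild type replicates 2 and 3 were thus the highest arrays for this sum too. Dcx differed by -0.59, Igfbpl1 by -0.63 and Dlx2 by -0.52. The 5 ependymal and choroid plexus genes, of the ventricle wall, summed to 242 to 356 in transgenic lesions and 313 to 476 in wild type lesions, with Ttr at 0.31, Kl at -0.17 and Foxj1 at -0.29 in difference.

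Glial lists followed other orders. The 9 myelin genes summed to 4350 to 7310 in transgenic lesions, against 12676, 9735 and 10228 in wild type replicates 1, 2 and 3, with Mbp at -0.80, Mog at -0.84 and Mag at -1.17 in difference. The 7 astrocyte genes summed to 1944 to 2923 in transgenic lesions and 3014 to 3691 in wild type lesions, with Gfap at -0.37, Aqp4 at -0.17 and Slc1a3 at -0.48. The 6 microglial and macrophage genes summed to 1709 to 3149 in transgenic lesions, against 5518, 2400 and 1808 in wild type replicates 1, 2 and 3, with Csf1r at -0.61, P2ry12 at -0.28 and Tmem119 at -0.26. Wild type replicate 1, low for the 10 striatal genes, was the highest array for all 3 glial sums.

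Sex also differed between arrays. Xist, expressed in females, was 4.67, 9.14 and 4.42 in transgenic replicates 1, 2 and 3, and 9.30 to 9.49 in wild type lesions, and the Y-linked genes Kdm5d and Eif2s3y were highest on transgenic replicates 1 and 3. All 3 wild type arrays thus shared the high Xist level. With sex as a covariate, a fit in which the group difference rests on transgenic replicate 2 alone, the median difference of the 10 genes was -0.88 and adjusted p-values lay between 0.374 and 0.801 in limma.

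The genes outside the 10 with the nearest profile were Rasd2, Dach1, Rarb, Tac1, Pde7b, Gm10754, Nexn and Pcp4l1. Likeness was the root mean square distance over the 6 arrays from the mean centred profile of the 10 genes, which had a median of 1.01 over all genes. Rasd2, a small GTP-binding protein enriched in striatum, lay at 0.25 and stood at 6.17, 6.75 and 6.61 in transgenic lesions, against 6.30, 7.74 and 8.27 in wild type lesions. Dach1, a transcriptional cofactor, lay at 0.29 and stood at 4.72, 4.95 and 4.80 in transgenic lesions, against 4.80, 6.18 and 6.48 in wild type lesions. Its levels on the transgenic arrays and wild type replicate 1 lay below every array median.

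Rarb lay at 0.30, Tac1 at 0.30, Pde7b, a cAMP phosphodiesterase, at 0.31, and Gm10754, Nexn, an actin-binding protein, and Pcp4l1 between 0.32 and 0.33. All 8 had wild type replicate 3 highest and wild type replicate 2 next. They were chosen for nearness to the mean profile, so this order and lower transgenic means were favoured by the choice. Their group differences ran from -1.19 (Gm10754) to -0.66 (Tac1), and adjusted p-values from 0.534 to 0.807 in limma. In all, 21 genes outside the 10 lay nearer than 0.5. A log2 step of at least 1 below wild type replicates 2 and 3 was found for 12 of 41345 probe sets (0.029%). At 1 probe set per gene, 11 genes had such a step. Of these, 9 were among the 10 genes, and the others were Dach1 and Rarb. The 10 genes were chosen with these levels known, so this count supports nothing by itself.

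**Figure D4:**
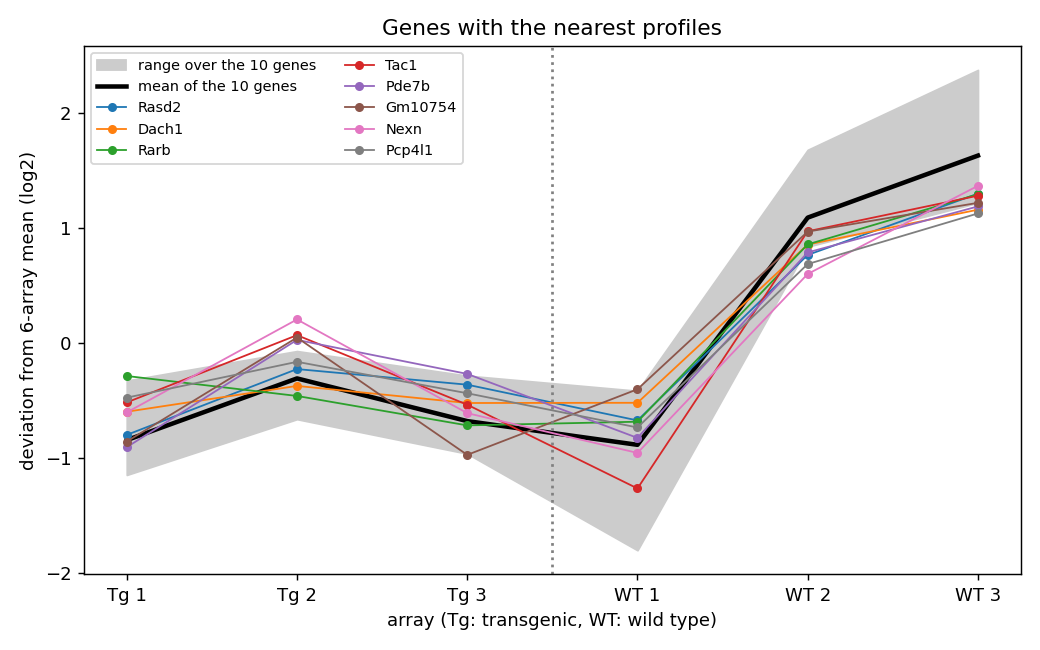
Deviation from the 6-array mean, on the log2 scale, for the 8 genes nearest to the mean profile of the 10 genes (black), with the range over the 10 in grey; Tg, transgenic; WT, wild type. All 8 are highest on WT 3 and next on WT 2, an order that choosing them by nearness favours.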

How the data were processed

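Total RNA of 6 macrodissected brain lesions was hybridised to 1 array each. The deposited intensities are RMA values per probe set, and the submitters' processing notes name RMA and Affymetrix Expression Console. Their array medians of 40.4 to 48.3 show a linear scale, so log2 was taken, with no pseudocount. Versions, the genome build, scan dates and detection calls were not used; the sources at hand name none.

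Of 41345 probe sets, 23521 carried exactly 1 gene symbol in the platform annotation, covering 22180 genes. Where a gene had several, the probe set brightest on average was read, and each of the 10 genes described here had only 1.

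Group differences come from lmFit and eBayes of limma 3.58.1 (R 4.3.3) over all probe sets, two-sided, with Benjamini-Hochberg adjustment over the whole table and a threshold of 0.05. Each SD is over 3 arrays and each SE is from the fit. On simulated data with 41345 probe sets, a log2 change of 1 was recovered for 30 of 100 probe sets and a log2 change of 2 for 92 of 100, beside 6 false calls; the simulated noise was equal in both groups, whereas the real spread was not. Same-numbered arrays of the 2 groups did not deviate together: correlations of their deviations from the group means were 0.01, -0.10 and -0.07, so the numbers were not taken as pairs.

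The 10 genes and the companion lists were chosen with earlier results of these data known. Besides the 10 genes, the text names the first 3 measured genes of each list, in their written order, and the 8 genes with the nearest profile. It also names Dach1 and Rarb among genes with a wide gap, and a few list members, chosen after their values were seen. Alternatives covered normalization, a filter on dim probe sets, a pseudocount, array weights, the variance moderation, the replicate block, sex, the choice of probe set and leaving out each array.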

Additional observations from a re-analysis of the deposited data

How the results depend on the processing

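All 10 genes kept lower means in transgenic lesions in each of the 15 alternatives, and 0 of the 10 passed the adjusted threshold in any of them. The median difference ranged from -1.92 to -0.69 when single arrays were left out, with wild type replicates 1 and 3 left out at the extremes, and from -1.33 to -0.88 over the other alternatives. Adjusted p-values of single genes lay between 0.0603 (with array weights) and 0.982 (without wild type replicate 2). The replicate numbers were not shown to pair the arrays. With the replicate block the median difference stayed at -1.26, with adjusted p-values of 0.593 to 0.817 in limma. At an unadjusted p under 0.05 this fit called 7 of the 10 genes, beside 2999 of 41345 probe sets in either direction. Without the block the counts were 3 of the 10 genes and 3668 probe sets.

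The count of all probe sets past the threshold was 0 with all 6 arrays, but 2611 with array weights, where transgenic replicate 3 carried a weight of 7.67 and the other transgenic arrays 0.26 and 0.28. It was 1481 with sex as a covariate. Leaving out single arrays gave 0 to 335, with 335 in the absence of transgenic replicate 2. The cause was not tested. As each of the 10 genes had 1 probe set, averaging over probe sets changed nothing. Precision is limited by the few arrays: the median 95% half-width of a log2 difference was 0.45 over all probe sets and reached 2.31 for Penk.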
